A study of Mus musculus with 16 samples.

Results

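The genes described are markers of the choroid plexus, chosen by their symbols: every probe set whose only gene symbol in the platform annotation is one of 10 named genes. Of these, 9 were measured, by 15 probe sets, among 18168 genes in all. The 9 are Ttr, Folr1, Kl, Clic6, Slc4a5, Otx2, Aqp1, Sostdc1 and Calml4, and 5 of them rest on 1 probe set. For the remaining one, Prlr, which encodes the prolactin receptor, no probe set carried it as the only symbol, and it was not analysed here.

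RNA came from the cerebellum and the hippocampus of mice that overexpress a mutant form of Twinkle, the helicase of mitochondrial DNA, and of wild-type mice, with 4 Affymetrix arrays for each genotype and region and 16 arrays in all. In order of replicate number, wild-type mice were 26, 24, 21 and 23 months old and mutants 24, 24, 21 and 21 months old, in both regions. The mice are known as deletor mice and model progressive external ophthalmoplegia, a disease of the eye muscles with deletions in mitochondrial DNA. The sources used here give neither the promoter of the transgene nor the strain, nor do they state which cerebellum and hippocampus came from 1 animal, or that replicates came from separate animals beyond their being called biological replicates. The p-values below therefore measure the spread between these samples. The titles, source names and tissue fields give the region used here, but the free-text description of all 8 hippocampus samples names the cerebellum. The study asked how gene expression differs between the genotypes in each region.

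The choroid plexus is a folded sheet of secretory epithelium around a core of vessels and stroma, hanging in the ventricles of the brain. Its epithelium makes cerebrospinal fluid by moving ions and water from blood to ventricle, and it loads that fluid with carriers, vitamins and hormones. It lies against the hippocampus in the lateral ventricles and against the cerebellum in the fourth ventricle, and is not part of the parenchyma of either. In RNA from a whole tissue piece, more or fewer choroid plexus cells and more or less RNA per cell cannot be told apart.

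Every deposited value was on a log scale, taken as log2, and set against the middle array of the same region. The median of the 8 cerebellum arrays lay within 1e-05 of 0 for 99.9% of probe sets, and so did that of the 8 hippocampus arrays. A value of 1 thus means 2-fold above the median array if the base is 2, and no level is left. Whether the choroid plexus genes were abundant in either region, and whether a tissue holds its own defining markers, cannot be read from such values, and the regions are not compared with each other directly. A number of arrays stood apart. The mutant array of replicate 4 was the lowest in the cerebellum, with a median of -1.10 over the 9 genes, and the highest in the hippocampus, with a median of 2.00. Wild-type hippocampus replicate 1 stood at 0.76 for the 9 genes and also at 1.29 for the median of 10 genes of cerebellar granule neurons, where the other 7 hippocampus arrays lay between -0.16 and 0.35. The SD of all gene values was 0.262 on that array and between 0.095 and 0.166 on the other 15. Relative to the other arrays of a region, the difference between 3′ and 5′ control probe sets, a measure of RNA integrity, ranged from -0.05 to 0.06 for Gapdh and from -0.10 to 0.14 for beta-actin. The highest of the latter was on mutant cerebellum replicate 4, where Gapdh stood at 0.004. Wild-type cerebellum replicate 3 came next for beta-actin, at 0.106.

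The 5′ ends of 3 of the genes are shown. These genes stood high and low together on the hippocampus arrays described below, as did others of the set, while lying on different chromosomes. Otx2 encodes a transcription factor. The windows are RefSeq's of build GRCm38.p6, with 250 bases before and 50 after an annotated start, written 5′ to 3′ along the gene's strand. Windows of 6 of the 10 genes, 5 of them measured, were searched. No window of Ttr was included in the search, so it does not cover every gene of the set. Capitals mark TAATCC or its reverse complement GGATTA, the core bound by homeodomain proteins of the Otx type, searched on both strands.
Otx2, chr14:48665060-48665359, minus strand: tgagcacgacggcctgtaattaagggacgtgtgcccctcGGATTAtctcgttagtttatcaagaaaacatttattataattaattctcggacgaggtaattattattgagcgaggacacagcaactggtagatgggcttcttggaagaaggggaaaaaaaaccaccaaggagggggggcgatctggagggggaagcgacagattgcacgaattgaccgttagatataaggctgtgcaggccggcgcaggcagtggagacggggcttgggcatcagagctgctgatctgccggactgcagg
Aqp1, chr6:55336049-55336348, plus strand: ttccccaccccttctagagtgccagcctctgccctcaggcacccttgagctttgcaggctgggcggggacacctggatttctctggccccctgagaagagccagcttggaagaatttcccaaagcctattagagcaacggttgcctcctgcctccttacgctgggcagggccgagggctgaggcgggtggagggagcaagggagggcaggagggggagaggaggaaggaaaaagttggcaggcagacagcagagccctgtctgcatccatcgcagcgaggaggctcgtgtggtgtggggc
Calml4, chr9:62857854-62858153, plus strand: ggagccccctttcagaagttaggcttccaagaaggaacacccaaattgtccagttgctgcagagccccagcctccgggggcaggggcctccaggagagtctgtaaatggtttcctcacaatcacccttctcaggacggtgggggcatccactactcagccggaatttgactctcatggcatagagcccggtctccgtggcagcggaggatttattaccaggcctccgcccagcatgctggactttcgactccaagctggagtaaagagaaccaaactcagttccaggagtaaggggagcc
Of the 4 Otx2 windows, that shown held 1 match, and the other 10 windows searched held none. Among all 32851 windows, 7.06% held 1 or more. The share of G and C was 51% in the Otx2 window shown, 62.7% in that of Aqp1 and 56.7% in that of Calml4, against a median of 52.7% over all windows.

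Ttr encodes transthyretin, the carrier of thyroid hormone and of the retinol-binding protein, and is the classic product of choroid plexus epithelium. In the cerebellum it lay at 0.25, -0.23, -0.09 and 0.16 on wild-type replicates 1 to 4 and at -0.02, 0.02, 0.08 and -3.02 on the mutant ones. The first 3 mutants sat inside the wild-type values and replicate 4 lay 8.12-fold below the median array. In the hippocampus Ttr lay at 1.87, 1.22, -0.69 and -0.87 in wild types and at -0.70, -1.56, 0.67 and 2.00 in mutants. Here each genotype held a high pair and a low pair of arrays, and the genotypes overlapped. All 4 Ttr probe sets gave this order of the extremes, from -2.77 to -3.52 on mutant cerebellum replicate 4 and from 1.71 to 2.48 on mutant hippocampus replicate 4. Of these, 2 carry the suffix _x_at and 1 the suffix _s_at, which mark probes that can match more than one transcript.

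Folr1 encodes folate receptor alpha, which carries folate across the epithelium into cerebrospinal fluid. Its cerebellar values were 0.81, -0.47, -0.39 and 0.46 in wild types and -0.17, 0.17, 0.17 and -2.19 in mutants. Its hippocampal values were 1.32, 0.23, -0.29 and -0.56 in wild types and -0.30, -0.23, 0.24 and 3.21 in mutants. The last of these, 9.27-fold above the median array, was the highest value of any of the 18168 genes on that array. Apart from replicate 4, the mutants lay within the wild-type span in both regions.

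Kl encodes Klotho, a membrane protein that acts as co-receptor for fibroblast growth factor 23 and is shed into cerebrospinal fluid. The mean of its 2 probe sets was 0.61, -0.35, -0.11 and 0.36 in wild-type cerebellum and -0.13, -0.20, -0.00 and -0.96 in mutant cerebellum. In the hippocampus it was 0.27, 0.11, -0.10 and -0.04 in wild types and -0.17, -0.09, 0.04 and 0.82 in mutants. The 2 probe sets did not move together. Probe set 1423400_at stood at -1.93 on mutant cerebellum replicate 4 and 1.70 on mutant hippocampus replicate 4, whereas 1451892_at stood at 0.02 and -0.06. The gene's mean therefore holds about as much of a probe set that stayed near 0 as of one that followed the other markers, and which of them reports the transcript of the epithelium was not tested.

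Aqp1, Slc4a5 and Clic6 belong to the transport of water and ions. Aqp1 encodes the water channel of the apical membrane, and lay at 1.16, -0.43, -0.19 and 0.40 in wild-type cerebellum and at 0.10, -0.10, 0.27 and -1.55 in mutant cerebellum. In the hippocampus Aqp1 was at 1.41, 0.38, -0.15 and -0.18 in wild types and -0.15, -0.30, 0.15 and 2.79 in mutants. It was thus high on the first wild-type array of each region, and at opposite ends on the mutant arrays of replicate 4. Slc4a5, a cotransporter of sodium and bicarbonate, had 0.51, -0.52, 0.21 and 0.33 in wild-type cerebellum against -0.32, 0.08, -0.08 and -0.88 in mutants. Its hippocampal values were 0.64, 0.33, -0.04 and 0.02 in wild types and -0.19, -0.21, -0.02 and 1.44 in mutants. Without replicate 4 the mutants lay inside the wild-type values in the cerebellum. In the hippocampus mutant replicates 1 and 2 lay below the wild types and replicate 3 inside them. Clic6, of the family of intracellular chloride channels, had 0.54, -0.33, -0.12 and 0.41 in wild-type cerebellum and -0.03, 0.22, 0.09 and -0.87 in mutant cerebellum. In the hippocampus it had 1.08, 0.31, -0.54 and -0.51 in wild types and -0.34, -0.33, 0.30 and 2.12 in mutants. The 2 Clic6 probe sets pointed the same way on these arrays with different sizes, 1.44 for 1434165_at and 2.80 for 1454866_s_at on mutant hippocampus replicate 4.

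Otx2 encodes a homeodomain transcription factor needed for the choroid plexus to form. It departed from the other genes in the cerebellum, with 0.42, -0.38, -0.10 and -0.02 in wild types and 0.10, 0.28, 0.02 and -0.22 in mutants, so that its lowest array was wild-type replicate 2 and not mutant replicate 4. In the hippocampus it had 0.19, 0.16, -0.45 and -0.50 in wild types and -0.16, -0.37, 0.62 and 1.78 in mutants, and followed the others.

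Sostdc1 encodes a secreted antagonist of BMP signals that also acts on Wnt signalling. It had 0.99, -0.57, -0.02 and 0.36 in wild-type cerebellum and -0.11, 0.09, -0.00 and -1.10 in mutants. In the hippocampus it had 0.27, 0.29, -0.09 and 0.00 in wild types and -0.79, -0.12, 0.00 and 1.80 in mutants. Its 2 probe sets stood at 1.92 and 1.68 on mutant hippocampus replicate 4. Calml4, a calmodulin-like protein of epithelial brush borders, had 0.82, -0.86, -0.05 and 0.32 in wild-type cerebellum and -0.08, 0.60, 0.05 and -1.55 in mutants. In the hippocampus it had 0.76, 0.05, -0.18 and -0.89 in wild types and -0.63, -0.05, 1.10 and 2.56 in mutants. Calml4 was the gene of the set most raised on mutant hippocampus replicate 3, at 1.10.

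**Figure D1:**
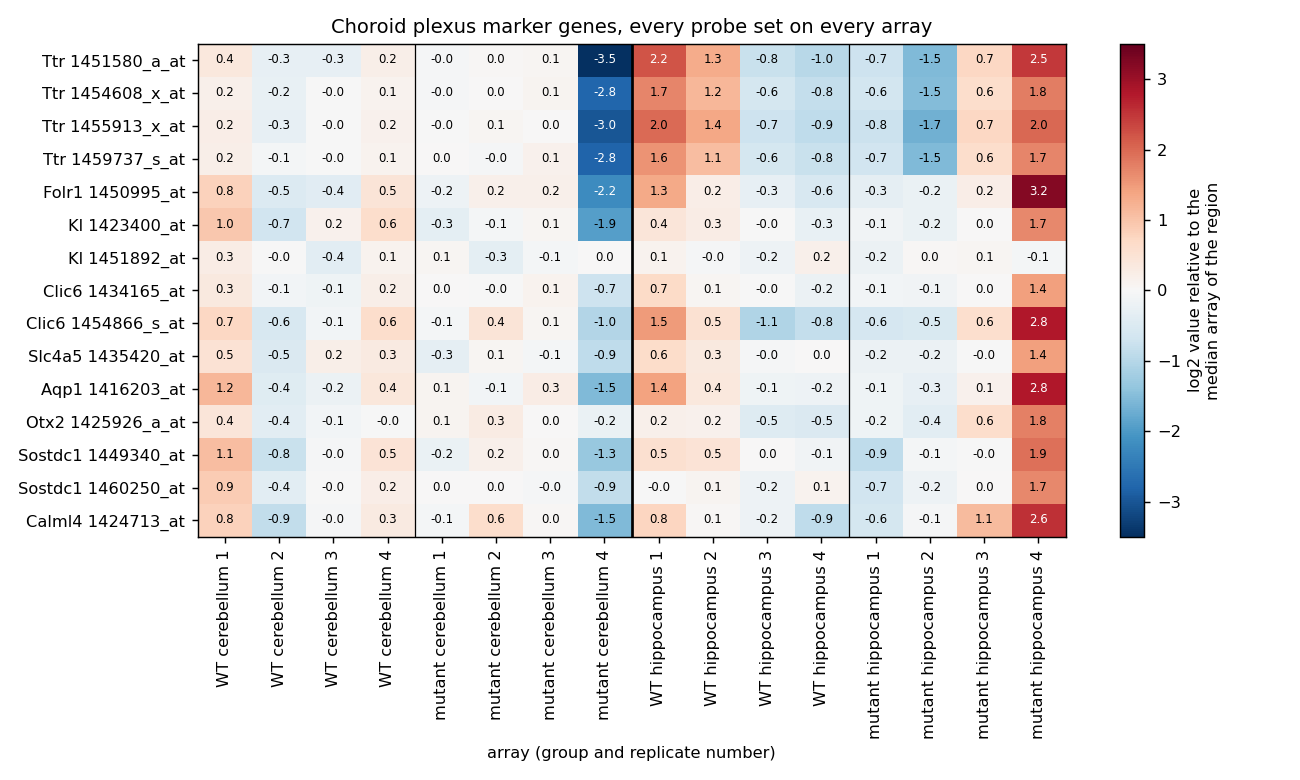
Each cell gives the log2 value of 1 of the 15 probe sets (rows) on 1 of the 16 arrays (columns, by group and replicate number), relative to the median array of the region. Mutant cerebellum replicate 4 is the low column, down to -3.52 for Ttr, mutant hippocampus replicate 4 is the high column, up to 3.21 for Folr1, and the Kl probe set 1451892_at is near 0 on both.

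Seen by array, the extremes were shared by most of the 9 genes in each region. Mutant cerebellum replicate 4 had 9 of 9 genes below 0, between -3.02 and -0.22, and was the lowest of the 8 arrays for 8 of them, the exception being Otx2. It was the lowest array for 15.9% of all genes. Wild-type cerebellum replicate 1, from the oldest mouse of that region at 26 months, was the highest for 9 of 9, with values from 0.25 for Ttr to 1.16 for Aqp1, and for 10.7% of all genes. Wild-type cerebellum replicate 2 had 9 of 9 below 0 and a median of -0.43, and replicate 4 had 8 of 9 above 0 and a median of 0.36. The remaining 4 cerebellum arrays had medians between -0.10 and 0.09. In the hippocampus, mutant replicate 4 was the highest array for 9 of 9 genes and for 18.8% of all genes, with values from 0.82 for Kl to 3.21 for Folr1. Wild-type replicates 1 and 2 also had 9 of 9 genes above 0, with medians of 0.76 and 0.29, and mutant replicate 3 had 8 of 9 above 0 with a median of 0.24. Mutant replicates 1 and 2 and wild-type replicate 3 had 9 of 9 below 0, with medians of -0.30, -0.23 and -0.18, and wild-type replicate 4 had the lowest median, -0.50.

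Most of these genes were among the most variable on the arrays. The median of the highest minus the lowest array was 2.08 over the 9 genes in the cerebellum and 2.66 in the hippocampus, against 0.31 over all genes in each region. Without the mutant array of replicate 4 the medians were 1.03 and 1.61, against 0.29 over all genes. The genes then differed in which region they varied. Over the 7 remaining cerebellum arrays Ttr had the smallest range of the 9, 0.47, and Calml4 the widest, 1.68. Over the 7 remaining hippocampus arrays Ttr had the widest range, 3.44, followed by Calml4 at 1.99, and Kl the smallest at 0.44. On the 2 mutant arrays of replicate 4 the genes also did not keep 1 size. Ttr was the farthest from 0 in the cerebellum, at -3.02, while Folr1, Aqp1, Calml4 and Clic6 stood above it in the hippocampus. With no level in the files, whether a signal neared the top or the bottom of the scanner's scale was not tested.

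**Figure D2:**
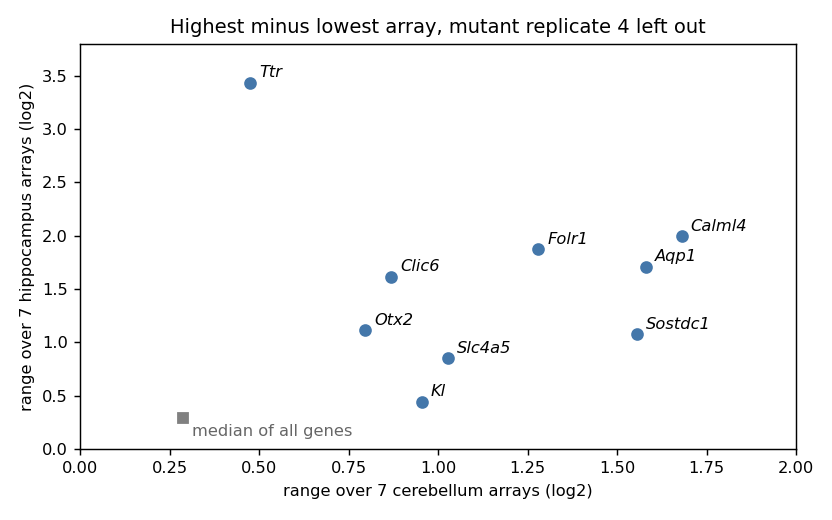
Each point is 1 of the 9 genes, with the highest minus the lowest log2 value over the 7 cerebellum arrays (x axis) and the 7 hippocampus arrays (y axis) left after mutant replicate 4 was removed; the square is the median of all 18168 genes. Ttr lies at 0.47 and 3.44, and the other 8 genes vary between 0.80 and 1.68 in the cerebellum and between 0.44 and 1.99 in the hippocampus.

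In the cerebellum, the mean of 8 of the 9 genes was lower in mutants than in wild types (Calml4 turned to 0.14 after quantile normalization), and none passed the test. Among all genes, 46.4% were lower and 53.6% higher in mutants. The differences, mutant minus wild type, ran from -0.76 for Ttr (SE 0.78) to 0.07 for Otx2 (SE 0.34), with a median of -0.45 over the 9 genes and 0.01 over all genes. limma was fitted to the 16 arrays with a mean per group and, for each gene, a spread shared by both regions. The limma adjusted p ran from 0.884 for Kl to 0.991 for Otx2. Kl had the smallest p of the 9. Its means were -0.32 ± 0.43 (mutants) and 0.13 ± 0.43 (wild types; SD, n = 4), apart by -0.45 with an SE of 0.24 and a limma adjusted p of 0.884. At an adjusted p under 0.05 limma called 0 of the 9 and 0 of 18168 genes, or 0%. At an unadjusted p under 0.05 the counts were 0 of the 9 and 979 genes, or 5.39%. The genotypes did not separate for any of the 9, while they lay apart for 447 genes, or 2.46%.

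Without mutant replicate 4 the cerebellar median difference of the 9 genes was -0.05, with a range from -0.24 for Slc4a5 to 0.16 for Otx2. Of the 9 genes, 6 were then lower in mutants, beside 44.2% of all genes. The difference of Ttr went from -0.76 to 0.01, that of Folr1 from -0.61 to -0.05, that of Aqp1 from -0.55 to -0.15 and that of Clic6 from -0.27 to -0.03. Calml4 turned from -0.30 to 0.13. Kl at -0.24, Slc4a5 at -0.24 and Sostdc1 at -0.20 kept their side. Without wild-type replicate 1, the high array of the other genotype, the median difference was -0.25.

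In the hippocampus the direction was the opposite, with means of 8 of the 9 genes higher in mutants (Slc4a5 turned to -0.043 and Sostdc1 to -0.15 after quantile normalization), and again none passed. Among all genes, 58.9% were higher and 41.1% lower in mutants. The differences ran from -0.28 for Ttr (SE 0.78) to 0.81 for Calml4 (SE 0.59), with a median of 0.26 over the 9 genes and 0.02 over all genes, and adjusted p from 0.638 to 0.991 (limma). The smallest p belonged to Otx2. Its means were 0.47 ± 0.97 (mutants) and -0.15 ± 0.37 (wild types; SD, n = 4), apart by 0.62 with an SE of 0.34 and a limma adjusted p of 0.638. Folr1 was at 0.56 (SE 0.69), Clic6 at 0.35 (SE 0.47), Aqp1 at 0.26 (SE 0.60), and Kl, Sostdc1 and Slc4a5 at 0.09, 0.11 and 0.02. limma called 0 of the 9 and 0 of 18168 genes, or 0%, at an adjusted p under 0.05. At an unadjusted p under 0.05 it marked 0 of the 9 and 1459 genes, or 8.03%. None of the 9 had separate genotypes, against 864 genes, or 4.76%.

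The hippocampal median difference changed sign when mutant replicate 4 was left out. It was then -0.27, and 7 of the 9 genes were lower in mutants, from -0.92 for Ttr to -0.14 for Kl. Among all genes, 43.7% were then lower in mutants. Otx2 at 0.18 and Calml4 at 0.21 stayed above 0. Without wild-type replicate 1, which carried the cerebellar granule neuron genes, the median difference was 0.60 and Ttr turned to 0.21. Ttr turned to 0.27 without mutant replicate 2. With both mutant replicate 4 and wild-type replicate 1 left out, a choice made after seeing the data, the median difference was -0.06. The SEs of the 9 genes were between 0.24 and 0.78, against a median of 0.07 over all genes in each region. Since the groups shared a spread in the fit, each gene had the same SE in both regions. For Ttr the SDs were 0.22 (wild types) and 1.52 (mutants) in the cerebellum, and 1.37 and 1.56 in the hippocampus.

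**Figure D3:**
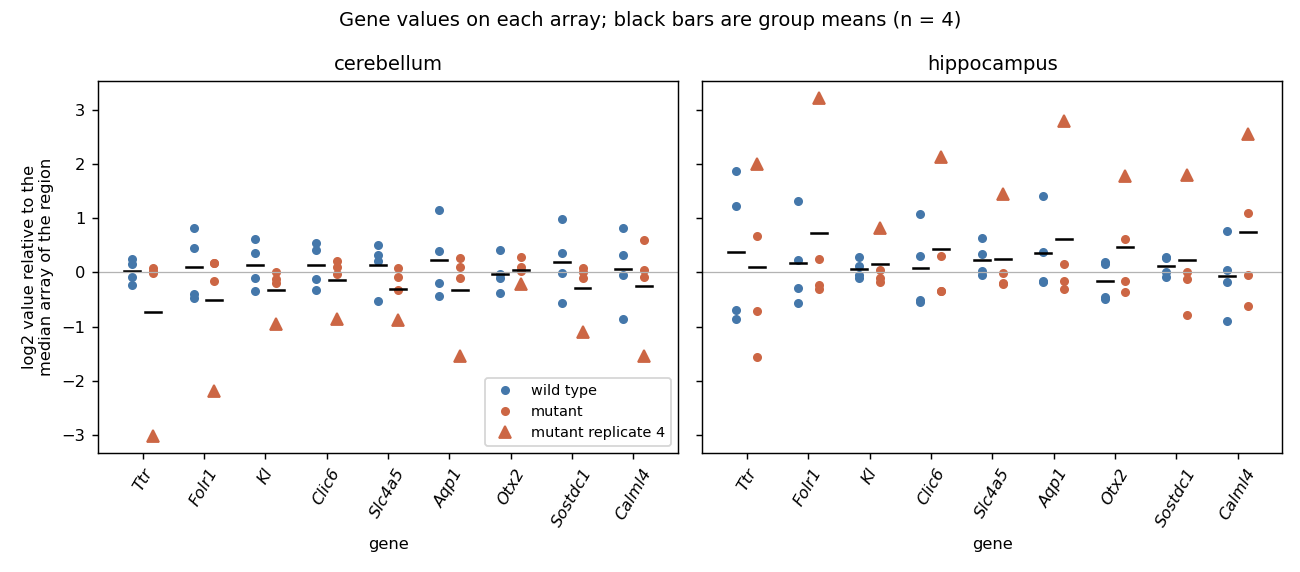
Points are the log2 values of the 9 genes on single arrays, blue for wild type and orange for mutant, with mutant replicate 4 as a triangle and group means (n = 4) as black bars. The triangles are the lowest points in the cerebellum for every gene but Otx2 and the highest in the hippocampus for every gene, and the other mutants overlap the wild types.

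**Figure D4:**
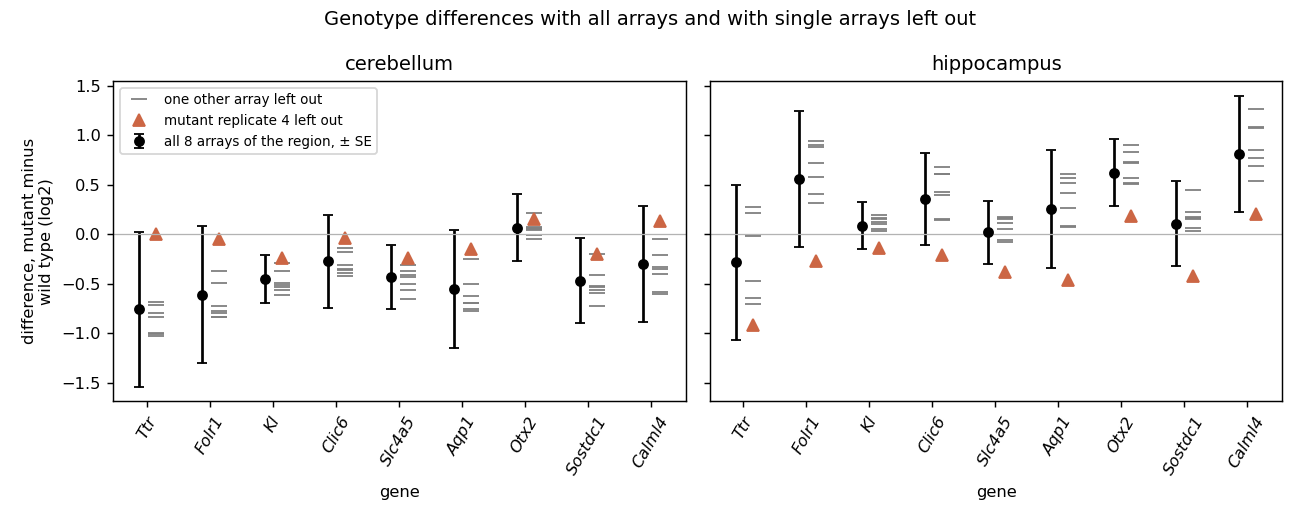
Black points are the differences, mutant minus wild type in log2 units, with all arrays (bars are ± 1 SE from limma), grey dashes those with 1 other array of the region left out and triangles those without mutant replicate 4. In the hippocampus 6 of the 8 positive differences fall below 0 at the triangle.

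The test of the difference between the regions, the genotype effect in the hippocampus minus that in the cerebellum, gave positive values for 9 of 9 genes, from 0.45 for Slc4a5 (SE 0.45) to 1.17 for Folr1 (SE 0.97), with a median of 0.57. None passed, with limma adjusted p from 0.879 to 0.962, and 54.9% of all genes were above 0. limma called 0 of 18168 genes, or 0%, for this difference, with 972 at an unadjusted p under 0.05, or 5.35%. Without both mutant arrays of replicate 4 the values of 6 genes were negative, among them Ttr at -0.92 and Aqp1 at -0.32. The fit took all arrays as independent, and which regions came from the same animal is not stated. Same-numbered cerebellum and hippocampus arrays of a genotype deviated together with correlations from -0.17 to 0.17.

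Other genes of the choroid plexus epithelium followed the same arrays. Of a list of 34 such genes, 32 were measured, and on mutant hippocampus replicate 4 all 32 were above 0, 22 of them above 0.5, with a median of 0.70. On mutant cerebellum replicate 4, 29 of the 32 were below 0, 10 of them below -0.5, with a median of -0.36. The potassium channel subunit gene Kcne2 stood at 2.76 on the former and -2.61 on the latter, the inward rectifier Kcnj13 at 2.60 and -1.44 and Ecrg4, which encodes a secreted peptide precursor, at 2.47 and -1.39. On wild-type hippocampus replicate 1 they stood at 1.17, 0.74 and 1.30. In mutants against wild types 27 of the 32 were lower in the cerebellum (median -0.12) and 31 of 32 higher in the hippocampus (median 0.19), and limma called 0 of them in either region. Without mutant replicate 4 these counts were 17 of 32 lower in the cerebellum (median -0.0099) and 15 of 32 higher in the hippocampus (median -0.0049), a setting added after seeing the data. Without wild-type replicate 1, 22 of the 32 were lower in the cerebellum (median -0.06). The medians per array ran from -0.36 to 0.06 in mutants and -0.13 to 0.16 in wild types of the cerebellum, and from -0.04 to 0.70 in mutants and -0.10 to 0.23 in wild types of the hippocampus.

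Among genes outside the set, the 10 with profiles nearest to the median profile of the 9 were F5, Steap1, Ecrg4, Prr32, Cldn2, Cox8b, Fap, Rdh5, Pcolce2 and Tmprss11a, and 6 of them were on that list. That list was chosen with earlier results of these data known. Nearness was the root mean square difference over the 16 arrays, which was 0.17 for F5, coagulation factor V, and 0.36 for Tmprss11a, against 0.67 for the median gene. A gene at 0 on every array would lie at 0.66, so the measure depends on the size of a gene's changes. The 9 genes themselves lay at 0.15 for Clic6 to 0.73 for Ttr. Cldn2, a claudin of leaky tight junctions, stood at 1.27 on mutant hippocampus replicate 4 and -0.56 on mutant cerebellum replicate 4, and F5 at 1.90 and -1.27. None of the 10 had an adjusted p under 0.05 in either region.

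The highest genes on mutant hippocampus replicate 4 were mostly of this kind. Because markers and list were chosen with earlier results of these data known, this overlap is no independent support. The 12 highest genes on that array were 7 of the 9 markers (Folr1, Aqp1, Calml4, Clic6, Ttr, Sostdc1 and Otx2) and 5 of the other list (Kcne2, Kcnj13, Ecrg4, Rdh5 and F5). Cox8b, Steap1, Prr32, Pcolce2, Slc4a5 and Fap filled ranks 13 to 18, and Kl stood at rank 37. On mutant cerebellum replicate 4, Prl and Gh, which encode the pituitary hormones prolactin and growth hormone, stood among the lowest, at -3.54 and -2.19, in ranks 1 and 4 from the bottom. Ttr, Kcne2, Folr1, Aqp1 and Calml4 filled ranks 2, 3, 5, 6 and 7, and the immediate early genes Fos at -1.53 and Dusp1 at -1.05 and the ciliary dynein gene Dynlrb2 at -1.03 stood in ranks 8, 14 and 15. Igfbp2, of the other list, was at -1.16. Prl did not follow the choroid plexus genes on other arrays. It stood at -3.86 on wild-type cerebellum replicate 1, where all 9 markers were highest, and at 6.41 on mutant hippocampus replicate 2, where all 9 were below 0.

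Genes of the processes in which the markers act had smaller medians on these arrays. Among 20 measured genes of ion and water transport for cerebrospinal fluid, the medians on mutant replicate 4 were -0.11 in the cerebellum and 0.17 in the hippocampus. The wide ranges there belonged to Kcne2, Kcnj13 and Trpv4, a calcium-permeable channel, which are also on the choroid plexus list. Among 11 genes that carry thyroid hormone and retinol the medians were -0.05 and -0.00, and the widest ranges were in Crabp2 and Rbp4, with 1.60 and 0.86 on mutant hippocampus replicate 1, and Thrb. Among 10 genes of folate uptake and use the medians were -0.03 and 0.06, with Ggh, Folr2 and Slc46a1 the most variable, each within 0.43 of 0. Among 9 genes of prolactin signalling they were -0.09 and 0.03, with Prl, Socs3 and Stat5b the most variable, and Socs3 at 2.25 on wild-type hippocampus replicate 1. Among 8 genes of klotho and related growth factors they were -0.06 and -0.09, led by Egr1, Fgfr3 and Fgfr1. Among 14 Wnt and BMP partners of Sostdc1 they were -0.02 and -0.01, led by Bmp7, Bmp4 and Bmp6, with 1.05, 0.77 and 0.82 on mutant hippocampus replicate 1. limma called 0 genes of these 6 lists in either region, at 0% of all genes.

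Markers of tissue next to the choroid plexus stood high or low on the same arrays in part. Ependymal cells, the ciliated lining of the ventricles, had 19 measured genes with medians of 0.48 on mutant hippocampus replicate 4, where 19 of 19 were above 0, and -0.18 on mutant cerebellum replicate 4, where 17 of 19 were below 0. They were at 0.39 on mutant hippocampus replicate 3 and -0.16 on wild-type hippocampus replicate 1, so the array with the second highest choroid plexus median had the lowest ependymal one of its region. Dynlrb2, Tmem212 and Ccdc153 were the most variable, with 1.04, 0.93 and 0.74 on mutant hippocampus replicate 4. In the hippocampus the ependymal medians ran from -0.08 to 0.48 in mutants and -0.16 to -0.02 in wild types. There 17 of the 19 genes were higher in mutants, with a median difference of 0.34 beside the 0.26 of the 9 markers, and without mutant replicate 4 the count was 16 and the median 0.21. In the cerebellum 10 of the 19 were higher in mutants, with a median difference of 0.0023, and 17 of the 19 without mutant replicate 4, with 0.10. Genes of meninges and fibroblasts, 18 measured, were highest on mutant hippocampus replicate 1, at 0.86, and stood at -0.10 on replicate 4 of that group. Among them Ogn, Aldh1a2 and Slc6a13 stood at 1.53, 1.91 and 1.505 on mutant hippocampus replicate 1. In the hippocampus 18 of the 18 genes were higher in mutants, with a median difference of 0.26, and the array medians ran from -0.11 to 0.86 in mutants and from -0.07 to 0.03 in wild types. Without mutant replicate 1 of that region 8 of the 18 were higher (median -0.03), and without replicate 4 all 18 (median 0.35). limma called 0 genes of the ependymal and meningeal lists in either region. In the cerebellum 16 of the 18 meningeal genes were higher in mutants (median 0.06), and 9 of the 18 without mutant replicate 2 (median 0.0033). Their median was 0.01 on mutant cerebellum replicate 4, between -0.05 and 0.35 over all mutants of that region and between -0.05 and 0.08 in its wild types.

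Other cell types showed little of the pattern. Over 13 genes of endothelium and pericytes, among them Tek, Pecam1 and Kdr, array medians stayed between -0.08 and 0.15. Blood cell genes, 8 measured, reached 0.57 on wild-type hippocampus replicate 3, with Alas2 at 1.54, S100a9 at 1.78 and S100a8 at 1.44. Cerebellar granule neuron genes were high on wild-type hippocampus replicate 1, with Gabra6 at 6.28, Cbln3 at 4.97 and Cbln1 at 3.41, and at or near 0 on both mutant arrays of replicate 4. Dentate granule and pyramidal genes, 12 measured, ran from -0.13 to 0.24 over the hippocampus arrays, with Fibcd1 at -2.03, Dsp at -0.93 and Neurod6 at -0.96 on wild-type replicate 1. Thalamus and habenula genes, 13 measured, ran from -0.08 to 0.09 over all arrays, led by Calb2, Lhx9 and Slc17a6. The 6 measured genes of the pineal and other ventricular organs ran from -0.19 to 0.08, with Rpe65, Tph1 and Aanat each within 0.49 of 0. The part of these markers in the genotype differences of the choroid plexus genes was not tested.

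**Figure D5:**
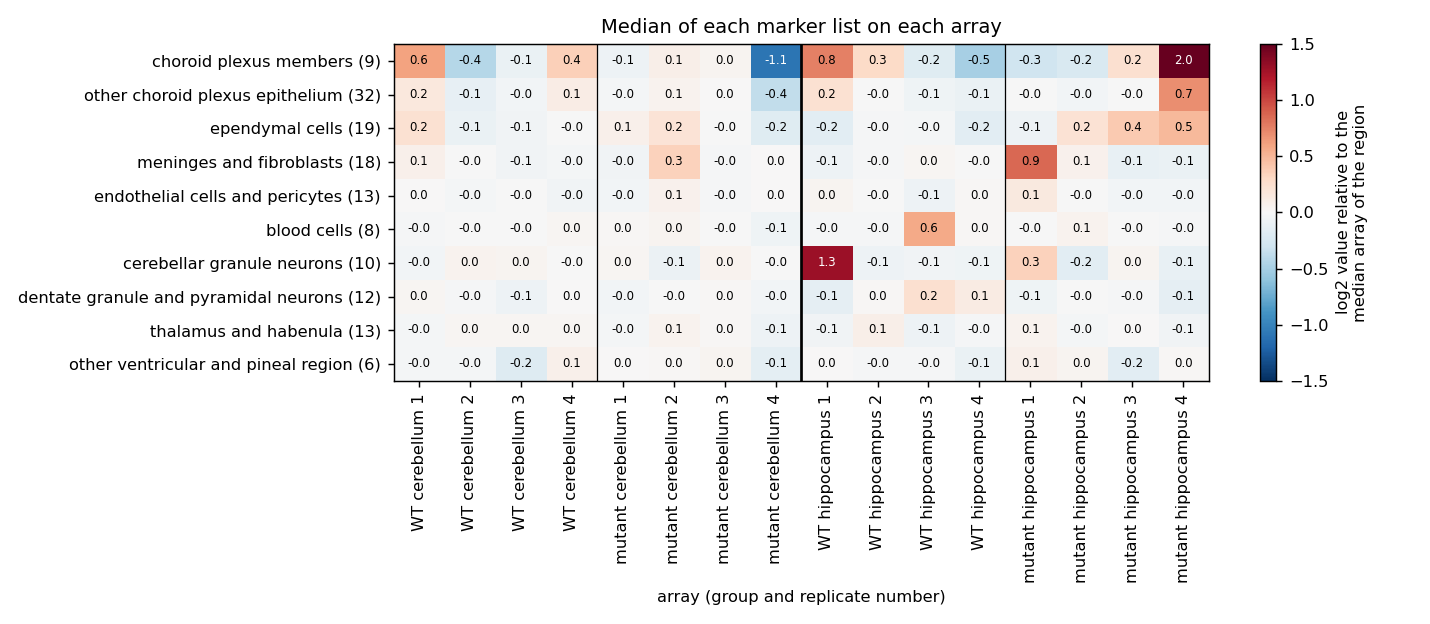
Each cell is the median log2 value of a marker list (rows, with the number of genes measured) on 1 array (columns), relative to the median array of the region. The choroid plexus rows are low on mutant cerebellum replicate 4, at -1.10 and -0.36, and high on mutant hippocampus replicate 4, at 2.00 and 0.70, while the granule neuron row is high on wild-type hippocampus replicate 1, at 1.29.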

How the data were processed

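RNA was extracted with Trizol, and biotin-labelled cRNA made from 5 ug of total RNA was hybridised to Affymetrix arrays, per the protocols in the labels. GCOS 4.0 was among the tools used, per the submitters' processing notes. The deposited table holds log values for 45101 probe sets on 16 arrays, taken as log2; the sources used here do not give the base, the normalization or the centring by region. Raw scans were not used here, so detection, background and saturation are unknown, and the number of arrays limits the precision.

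Control probe sets (64) and probe sets with an empty value (133) were left out. Of the 44904 remaining, 34843 carried 1 gene symbol in the platform annotation, 931 several and 9130 none. Probe sets of a gene were averaged, giving 18168 genes. All 9 measured members matched RefSeq's gene table by identifier with the same symbol. A mean per group was fitted to all genes with limma 3.58.1 in R 4.3.3 (lmFit and eBayes, Benjamini-Hochberg adjustment over all genes, threshold 0.05), after tests on simulated data. The members and the gene lists were chosen with earlier results of these data known. Besides the members, the genes named are the 10 nearest to the members' median profile, the 10 highest on the hippocampus array with the highest member median, the 10 lowest on the cerebellum array with the lowest, and the 3 of each list with the widest range. Alternatives were the summary of probe sets, normalization, centring, age as a covariate, array weights, robust eBayes, a replicate block, each region alone and leaving out arrays.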

Additional observations from a re-analysis of the deposited data

Results flagged for a closer look

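In groups of 4 arrays, a value was picked out where its gap to the nearest other array as a share of the group's range exceeded Dixon's critical value for that number. Of 40 groups tested, 7 had such a value, and chance gives about 1 in 20. All 7 were on the mutant arrays of replicate 4. In the cerebellum these were Ttr at -3.02 (gap 0.969 of the range), Folr1 at -2.19 (0.860), Sostdc1 at -1.10 (0.834) and the median of the 9 genes at -1.10 (0.859). In the hippocampus they were Folr1 at 3.21 (0.844), Aqp1 at 2.79 (0.854) and Slc4a5 at 1.44 (0.884). The genes share these arrays, so the 7 are not independent of one another.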

How the results depend on the processing

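None of 612 fits of a choroid plexus gene under an alternative reached an adjusted p under 0.05 in limma. Among all genes, 0 were called in the cerebellum throughout. In the hippocampus 0 were called with all arrays, 1 without both mutant arrays of number 4 (Vgll3), 1 without mutant replicate 4 and wild-type replicate 1 of the hippocampus (Vgll3, chosen after seeing the data), 1 after quantile normalization (Arsj), 2 with robust eBayes (Arsj and Cpne9) and 0 to 7 with 1 array left out. For the difference between regions 1 was called under each of the first 2 of these and 0 to 1 with 1 array left out. Same-numbered mutant and wild-type arrays of a region deviated together with correlations from -0.19 to 0.23, so the numbers were not taken to pair the samples. The replicate block kept the differences and called 0 genes, with adjusted p of 0.912 for Kl in the cerebellum and 0.697 for Otx2 in the hippocampus. Leaving out both mutant arrays of number 4 reversed, in the hippocampus, Aqp1 (-0.47), Clic6 (-0.21), Folr1 (-0.27), Kl (-0.14), Slc4a5 (-0.38) and Sostdc1 (-0.42), in the cerebellum Calml4 (0.13) and Ttr (0.0057), and between regions Aqp1 (-0.32), Clic6 (-0.17), Folr1 (-0.22), Slc4a5 (-0.14), Sostdc1 (-0.22) and Ttr (-0.92). Leaving out mutant replicate 4 and wild-type replicate 1 of the hippocampus reversed Aqp1 (-0.12), Kl (-0.065), Slc4a5 (-0.24) and Sostdc1 (-0.37) there. Quantile normalization reversed Calml4 in the cerebellum (0.14) and Slc4a5 (-0.043) and Sostdc1 (-0.15) in the hippocampus, and Kl was at -0.063 in the hippocampus by probe set 1451892_at alone; the cause was not tested. With 1 array left out, hippocampal differences ran from -0.47 to 0.60 for Aqp1, -0.21 to 0.68 for Clic6, -0.27 to 0.94 for Folr1, -0.14 to 0.19 for Kl, -0.38 to 0.17 for Slc4a5, -0.42 to 0.44 for Sostdc1 and -0.92 to 0.27 for Ttr. Cerebellar ones ran from -0.61 to 0.13 for Calml4, -0.051 to 0.21 for Otx2 and -1.03 to 0.0057 for Ttr, and that between regions from -0.29 to 1.03 for Ttr. The median over the 9 genes ran from -0.65 to -0.05 in the cerebellum and from -0.27 to 0.60 in the hippocampus. Signal over background is not known for these values.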
